A study of Mus musculus with 8 samples.

Results

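Mbnl1, Mbnl2, Mbnl3, Rbfox2, Ptbp1, Ptbp2, Celf1, Esrp1, Esrp2 and Srrm4 encode regulators of alternative splicing. These 10 genes were taken by symbol from a table of 13558 transcripts of mouse embryonic stem (mES) cells, and all 10 were present with 1 row each. Their normalized read counts in 4 Trim71 mutant (KO) libraries were compared with those in 4 Trim71 conditional (WT) libraries. The question was whether the messages of these regulators differ when Trim71, an RNA-binding ubiquitin ligase, is lost from mES cells.

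Per the labels, the WT libraries have the genotype Trimfl/fl and the KO libraries the genotype Trim-/-, and all 8 came from male C57BL/6 cells in a medium with FCS and LIF. Mutation was induced in conditional cells with 500 nM 4-hydroxytamoxifen for 2 days, and at least 7 days of culture followed; the study's methods give a lower dose and a shorter culture. Every line carried the floxed allele together with a tamoxifen-activated Cre expressed from the ubiquitous Rosa26 locus, so the WT cells hold the Cre as well, and by the study's methods controls received the solvent. Cells carrying SSEA-1, a surface antigen of undifferentiated mES cells, were enriched on magnetic beads before lysis. A pair of clones was used. KO replicates 1 to 3 (days 2, 3 and 4 by the labels) and WT replicates 2 and 3 (days 3 and 4) came from clone E3, while KO replicate 4 (day 5) and WT replicates 1 and 4 (days 1 and 5) came from clone 1. The labels do not say that libraries of a genotype were separate cultures, so p-values measure only the spread between these samples.

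Pre-mRNA of most mammalian genes can be spliced in more than one way, and the choice depends on RNA-binding proteins that recognise short motifs in or near an exon. Muscleblind-like proteins (Mbnl) bind through zinc fingers, promote exon choices of differentiated tissues such as muscle, and are known to repress splicing patterns of ES cells. CELF proteins often act on the same exons as Mbnl with the opposite outcome. Ptbp1 represses neural exons in non-neural cells, and its paralog Ptbp2 takes over in developing neurons. Srrm4 promotes neural microexons, Esrp1 and Esrp2 promote epithelial exons, and Rbfox2 binds next to exons in many tissues. The libraries measured the amount of each message. Which exons were used was not measured.

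The 3 Mbnl messages have related coding sequences, so it matters whether a read can be assigned to 1 of them. Over the aligned bases of the longest annotated coding sequences, 74.7% were identical between Mbnl1 and Mbnl2, 71.4% between Mbnl1 and Mbnl3 and 70.9% between Mbnl2 and Mbnl3. The longest run of identical bases, between Mbnl1 and Mbnl2, was 26 bases, shorter than a read of 100 bases. It is shown here with the aligned stretch of Mbnl3, where capitals mark the 6 bases that are unlike Mbnl1. In the GENCODE transcripts used (build GRCm38, the same assembly as mm10) it covers coding bases 187 to 212 of Mbnl1 in exon 2 (chr3:60595606-60595631, plus strand), coding bases 187 to 212 of Mbnl2 in exon 3 (chr14:120379162-120379187, plus strand) and coding bases 190 to 215 of Mbnl3 in exon 3 (chrX:51139331-51139356, minus strand). Each sequence reads 5′ to 3′ on the message.
Mbnl1: agagagaactgcaaatatcttcatcc
Mbnl2: agagagaactgcaaatatcttcatcc
Mbnl3: CgTgagaactgcaaGtaCctCcaCcc
The longest shared run was 14 bases between Ptbp1 and Ptbp2 and 35 bases between Esrp1 and Esrp2, also under the read length. The library kit does not mark strand, so reads from overlapping genes on the opposite strand cannot be told apart. Such overlap took 12.7% of the exonic bases of Ptbp1 (Gm17134), 8.55% (E130317F20Rik) and 5.16% (Plppr3), 6.19% of those of Esrp2 (Nfatc3), 1.81% of Mbnl2 (Gm26679) and 0.884% of Srrm4 (Srrm4os).

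Of the whole table, the following facts bear on the 10 genes. Reads recovered from the deposited values came to 6620585 (WT replicate 2) to 24662068 (WT replicate 3) a library. Trim71 itself averaged 568.3 ± 248.6 normalized counts in KO against 2522.5 ± 366.5 in WT (SD, n = 4 each). Since the study's design deletes exon 4 only, reads of the other exons remain in KO. The log2 fold change of Trim71 was -2.39, with a limma p of 0.000201 unadjusted and 0.294 adjusted over all transcripts. Even the deleted gene thus did not pass after adjustment, so failing that threshold does not show that a message was unchanged. All 8 markers of ES cells were present, with summed levels of 61971 to 87934 normalized counts in KO and 56595 to 78526 in WT. KO replicate 3 stood apart: it was the lowest of the 8 libraries for 26.5% of all transcripts and for 3 of the 10 regulators (Mbnl3, Ptbp2 and Celf1). In the deposited values WT replicate 1 was lowest for another 3 (Mbnl1, Mbnl2 and Esrp2) and for 12.8% of all transcripts. A clone effect had been subtracted before deposit. With that undone, Mbnl2 was lowest in KO replicate 3 (542.7) and not in WT replicate 1 (741). Values without these libraries are given beside the results that they change.

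In WT cells the regulators spanned a wide range of message. Levels are compared here as normalized counts per kb of exon. Ptbp1, the repressor of neural exons, was highest at 2506 per kb, followed by Celf1 at 675.2, Rbfox2 at 333.7, Esrp1 at 219.6 and Mbnl2 at 188.7. Ptbp2 stood at 79.98 per kb, Mbnl1 at 52.8, Esrp2 at 32.24, Mbnl3 at 24.45 and Srrm4, the neural microexon factor, at 3.92. The WT ranges of Ptbp1, Celf1, Rbfox2 and Esrp1 did not overlap from one to the next, nor did those of Mbnl3 and Srrm4. From Esrp1 down to Mbnl3, the range of each gene overlapped that of the next, so the order of these neighbours was not resolved. Thus Mbnl2 was the most abundant Mbnl message and Mbnl3 the least abundant, with WT ranges of 96.82 to 248 per kb (Mbnl2), 33.14 to 67.57 (Mbnl1) and 17.04 to 31.16 (Mbnl3) that did not overlap. Srrm4 rested on 18 to 80 reads a library, against 5505 to 18598 for Ptbp1.

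**Figure D1:**
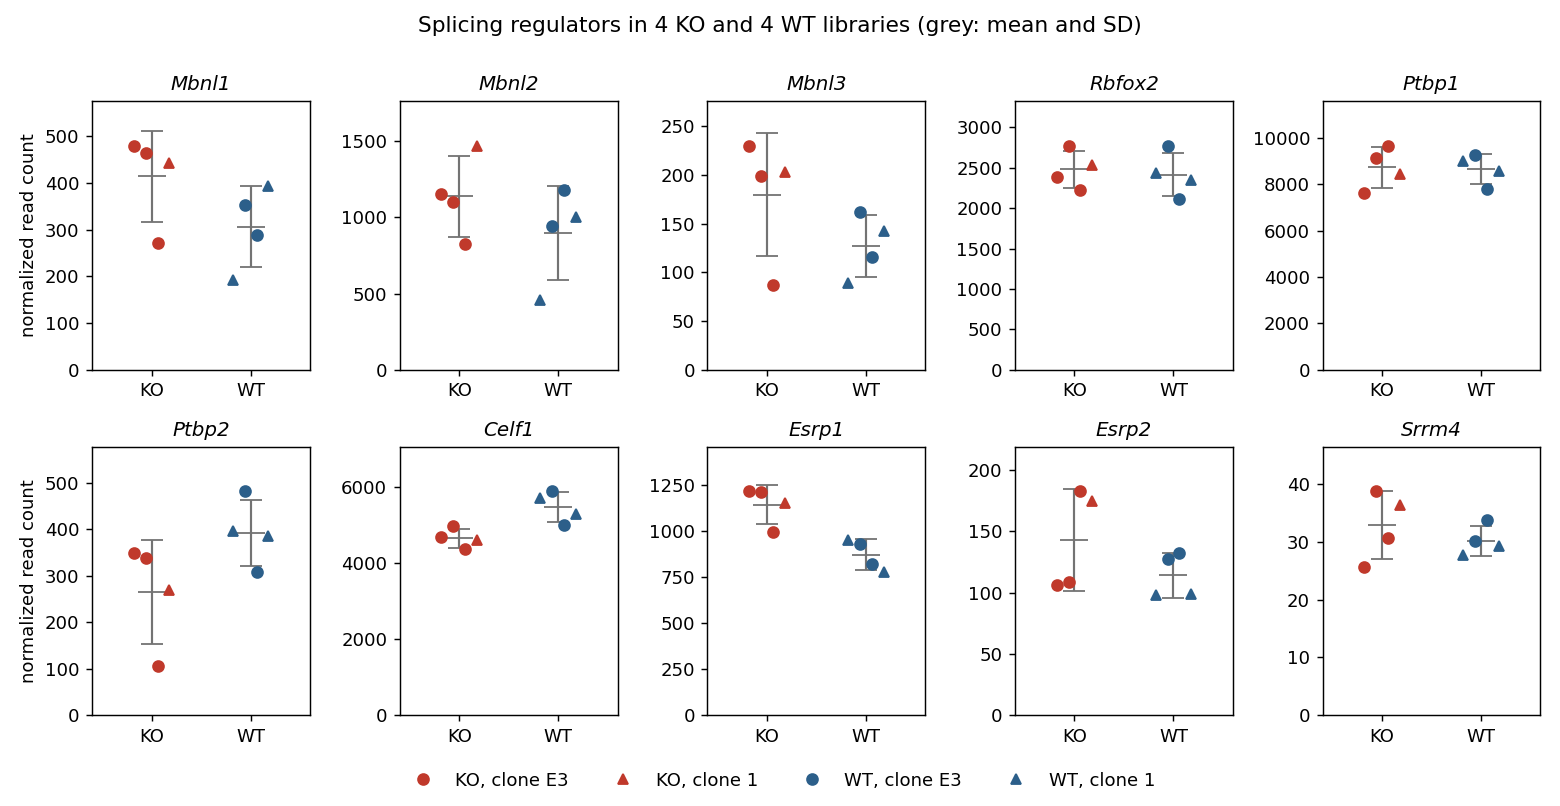
Normalized read counts (vertical axis, from 0) of the 10 regulators in the 4 KO (red) and 4 WT (blue) libraries, with circles for clone E3, triangles for clone 1, and grey bars for the mean and SD. The KO points lie above all WT points for Esrp1 and below all of them for Celf1, and the groups overlap for the other 8 genes.

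Between the genotypes, 1 of the 10 regulators, Esrp1, passed an unadjusted p of 0.05 in limma, against 9.09% of all 13558 transcripts (4.62% higher and 4.46% lower in KO), so the share among the regulators was near the background. None of the 10 passed the criterion that also asks for a fold change of at least 1.5, against 4.25% of all transcripts. After Benjamini-Hochberg adjustment in limma 0 transcripts of the table passed 0.05, of 1232 with an unadjusted p under 0.05. With voom on recovered reads 2 transcripts passed after adjustment, and neither was 1 of the 10. The KO and WT libraries did not overlap in 2 of the 10 genes, Esrp1 (KO higher, as in 5.48% of all transcripts) and Celf1 (KO lower, as in 4.62%), against 10.1% in either direction. The median log2 fold change of the 10 genes was 0.19, beside -0.00 for all transcripts. Of the 10 estimates 8 were above 0, as were 6774 of the 13558 over all transcripts. The 8 include Rbfox2 (0.04), Ptbp1 (0.01) and Srrm4 (0.11), each smaller than its SE, and whether the 10 shift as a set was not tested.

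Esrp1 lies on the minus strand of chromosome 4 (chr4:11331933-11386783, mm10) and has up to 16 exons. The KO libraries, in replicate order, gave 1216.6, 1213.3, 996.2 and 1155.2 normalized counts, and the WT libraries gave 954.1, 930.4, 822.6 and 779.1. All KO values were above all WT values, with the narrowest gap between KO replicate 3 and WT replicate 1. Means were 1145.3 ± 103.3 for KO and 871.6 ± 84.13 for WT (SD, n = 4 each). The log2 fold change was 0.39 (SE 0.132, 95% interval 0.08 to 0.70), or 1.314-fold. The limma p was 0.0197 unadjusted and 0.483 after adjustment over all transcripts, and the exact permutation p over 70 assignments was 0.0286, the smallest they can give. On days 3, 4 and 5, which each had 1 library of both genotypes, KO exceeded WT by 0.38, 0.28 and 0.57 on the log2 scale. The unadjusted p rose above 0.05 without KO replicate 2 (0.052), KO replicate 4 (0.0817) or WT replicate 3 (0.0646), with log2 fold changes of 0.37, 0.38 and 0.35.

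Before deposit an additive clone effect had been subtracted from each transcript, and for Esrp1 it was large. With the correction undone from recovered reads, clone E3 stood at 1455.7, 1452.4 and 1235.3 normalized counts in KO and 1169.5 and 1061.7 in WT. Clone 1 stood at 916.1 in its only KO library and at 715 and 540 in WT. Esrp1 was thus 1.51-fold higher in clone E3 than in clone 1 in KO and 1.78-fold higher in WT. The genotypes overlapped over all 8 uncorrected libraries, yet within each clone all KO values were above all WT values. The same held, in this direction, for 6.42% of the 13450 transcripts whose reads were recovered. This comparison within clones was chosen after the values were seen.

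Esrp2, the paralog of Esrp1 (chr8:106130319-106136974, minus strand, mm10), gave 106, 108.6, 182.4 and 174.7 normalized counts in the KO libraries, in replicate order, against 97.74, 127.6, 132.2 and 98.48 in the WT libraries. KO replicates 3 and 4 were above all WT libraries, while KO replicates 1 and 2 lay among them. The log2 fold change was 0.28 (SE 0.246, limma p 0.288 unadjusted and 0.728 adjusted). It was -0.02 in clone E3 and 0.83 in clone 1, where a single KO library stands against 2 WT libraries. The clone 1 fit gave an unadjusted limma p of 0.0135, against 10.1% of all transcripts under 0.05 in that fit, and assumes that the lone KO library varies like the WT pair. The difference between the clones was not tested.

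**Figure D2:**
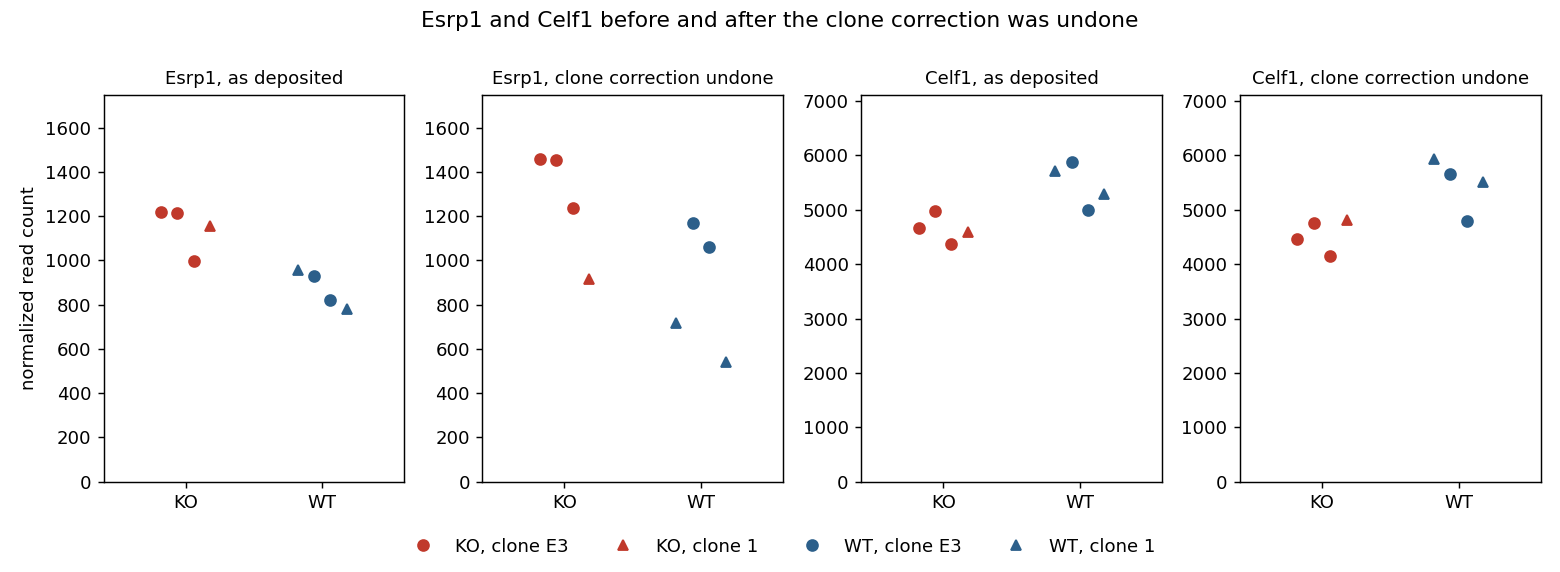
Normalized read counts (vertical axis, from 0) of Esrp1 and Celf1 in each library, as deposited and with the clone correction undone, for KO (red) and WT (blue) libraries of clone E3 (circles) and clone 1 (triangles). The genotypes separate in the deposited values. Without the correction they overlap over all libraries and separate within each clone, with Esrp1 at 916.1 in the clone 1 KO library and 1169.5 in a clone E3 WT library.

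Celf1, a CELF family member whose targets overlap those of Mbnl, lies on the plus strand of chromosome 2 (chr2:90940382-91019497, mm10). In replicate order its counts were 4673.6, 4973.9, 4372.1 and 4594 in the KO libraries against 5708.9, 5876.9, 5004.5 and 5291.2 in the WT libraries. All KO values were below all WT values, although KO replicate 2 and WT replicate 3 differed by little. KO averaged 4653.4 ± 248.9 and WT 5470.3 ± 396.4 normalized counts (SD, n = 4 each), and the log2 difference was -0.23 (SE 0.113). This did not pass in limma, with p 0.0775 unadjusted and 0.586 adjusted, and the exact permutation p was 0.0286, again the smallest possible. The differences on days 3, 4 and 5 were -0.24, -0.19 and -0.20 on the log2 scale. With voom on recovered reads the unadjusted p was 0.0474, where 9.41% of transcripts were under 0.05, and with the day as a replicate block added it was 0.0479, where 24.5% were. With the clone correction undone the genotypes overlapped over all 8 libraries, with 4809.9 in KO replicate 4 and 4788.6 in WT replicate 3. The separation behind the permutation p thus depends on the correction. Within each clone, with the correction undone, the KO values were again below the WT values, as they were for 5.94% of transcripts.

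The 3 Mbnl messages had positive estimates over all 8 libraries, but none passed the test, the groups of each overlapped and the estimates changed with the day. Mbnl1 (chr3:60472830-60629750, plus strand, mm10) gave 479, 464, 270.2 and 442.2 normalized counts in the KO libraries, in replicate order, against 192.3, 352.1, 289.2 and 392.2 in the WT libraries. KO replicates 1, 2 and 4 were above all WT libraries, and KO replicate 3 lay below 3 of them. The log2 fold change was 0.43 (SE 0.296, 95% interval -0.26 to 1.13), with a limma p of 0.185 unadjusted and 0.675 adjusted and an exact permutation p of 0.2.

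Mbnl2 (chr14:120275669-120431697, plus strand, mm10) gave 1150.8, 1102.6, 824.4 and 1467.9 normalized counts in the KO libraries and 459.3, 945.7, 1176.5 and 1000.1 in the WT libraries, again in replicate order. As deposited, its lowest value was in WT replicate 1 and its highest in KO replicate 4, both of clone 1, and the other libraries were interleaved. The log2 fold change was 0.36 (SE 0.336, 95% interval -0.43 to 1.15; limma p 0.316 unadjusted and 0.743 adjusted). In deposited values it was 1.11 in clone 1 and -0.06 in clone E3. It was -0.055 without KO replicate 4 and 0.12 without WT replicate 1, so the positive estimate rests on these clone 1 libraries. With the clone correction undone the estimate over all 8 libraries was 0.25 (SE 0.294). With the clone correction undone, clone E3 stood at 0.43 times the level of clone 1 in KO and at 0.77 times in WT. WT replicate 1 then stood at 741 normalized counts, above KO replicate 3 (542.7) and WT replicate 2 (664). KO replicate 4 stayed highest, at 1749.6.

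Mbnl3, the X-linked member (chrX:51117269-51206532, minus strand, mm10), gave 230, 198.7, 87.59 and 203.1 normalized counts in the KO libraries, in replicate order, against 88.77, 162.4, 115.7 and 142.7 in the WT libraries. As with Mbnl1, KO replicates 1, 2 and 4 lay above all WT libraries as deposited, and KO replicate 3 was the lowest of all 8. With the clone correction undone, KO replicate 2 (168.4) lay below WT replicate 4 (173), and KO replicate 3 stayed lowest (57.33). In deposited values the log2 fold change was 0.44 (SE 0.361, 95% interval -0.41 to 1.29, limma p 0.263 unadjusted and 0.713 adjusted). With the correction undone it was 0.40 (SE 0.424). Without KO replicate 3 the deposited values gave 0.72 with an unadjusted limma p of 0.0145, where 10.7% of all transcripts were under 0.05. The same omission put Mbnl1 at 0.61 (p 0.0508) and Mbnl2 at 0.50 (p 0.187).

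The sign was not the same on every day that had both genotypes. On days 3, 4 and 5 the KO minus WT difference on the log2 scale was 0.40, -0.10 and 0.17 for Mbnl1. It was 0.22, -0.51 and 0.55 for Mbnl2 and 0.29, -0.40 and 0.51 for Mbnl3. All 3 messages were thus lower in KO on day 4, the day of KO replicate 3. With the day as a replicate block the log2 fold changes were 0.16 for Mbnl1 (p 0.303), 0.09 for Mbnl2 (p 0.73) and 0.13 for Mbnl3 (p 0.56).

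Mbnl1 and Mbnl3 varied together over the libraries, and the likeness of Mbnl2 to them rested on a pair of libraries. Over the 8 libraries, which share their depth scaling and clones, Pearson's r of log2 values was 0.93 for Mbnl1 with Mbnl3, 0.83 for Mbnl1 with Mbnl2 and 0.73 for Mbnl2 with Mbnl3. Without KO replicate 3 and WT replicate 1 it was 0.93, 0.26 and 0.32 over 6 libraries, a comparison added after the values were seen. With the genotype means also removed, the same 6 libraries gave 0.72, -0.64 and -0.61. With the genotype means removed, high values were not particular to pairs of Mbnl. On that measure r over 8 libraries was 0.92 for Mbnl1 with Mbnl3, 0.93 for Rbfox2 with Celf1, 0.88 for Mbnl3 with Ptbp2 and 0.82 for Celf1 with Esrp1. With the means left in, the last of these pairs gave -0.46, Rbfox2 with Celf1 0.39 and Mbnl3 with Ptbp2 0.42, while Ptbp2 with Celf1 gave 0.78. Among 9937 transcripts with a mean of at least 100 normalized counts, those most like Mbnl1 over the 8 libraries were Htra1 (r 0.981), a secreted serine protease, Gcnt3 (0.971) and Ddah1 (0.971). Those most like Mbnl2 were Tfpi (0.976), an inhibitor of the coagulation pathway, Hmga2 (0.976), a chromatin protein of embryonic cells, and Wdr35 (0.974). For Mbnl3 they were 1600012H06Rik (0.989), 2700089E24Rik (0.987) and Arfip1 (0.986). With so many candidates and 8 libraries these values are descriptions only.

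Markers of other cell types were read beside the Mbnl values, because Mbnl messages are abundant in differentiated cells. In bulk RNA, fewer cells of a type and less RNA per cell cannot be told apart. Of 5 endoderm markers 4 were present (Afp was not analysed here), and their summed normalized counts in replicate order were 187, 165.6, 289.6 and 434 in the KO libraries against 4.717, 158.8, 256 and 109.6 in the WT libraries. In the deposited values the sum was thus lowest in WT replicate 1, where Mbnl1 and Mbnl2 were lowest. It was highest in KO replicate 4, where Mbnl2 was highest. With the clone correction undone, Mbnl1 stayed lowest in WT replicate 1 (222.1). Mbnl2 was then lowest in KO replicate 3 (542.7) and stood at 741 in WT replicate 1. In WT replicate 1 the defining factors Sox17, Gata6 and Foxa2 were at the floor of 1, which was set after the clone effect was subtracted. A value at the floor thus does not show that the message was absent. The endoderm sums were not examined with the correction undone. All 4 endoderm markers had positive log2 fold changes (median 1.38) and none passed an unadjusted p of 0.05, and the exact permutation p of the sum was 0.114. Without WT replicate 1 the log2 fold changes were 0.26 for Mbnl1, 0.12 for Mbnl2 and 0.30 for Mbnl3. The sort for SSEA-1 before lysis selects undifferentiated cells. The part of endoderm cells in the Mbnl values was not tested.

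Of 8 muscle markers 4 were present and Actc1, Tnnt2, Myod1 and Myog were not analysed here. The muscle sums ran from 535.3 to 630.2 in KO and from 637 to 1069.8 in WT, lower in every KO library (exact permutation p 0.0286), but the members did not move as one. Ttn averaged 147.8 in KO and 375 in WT, but its groups overlapped, with 85.38 in WT replicate 3 against 226.5 in KO replicate 2. In WT replicate 3, whose sum of 637 was the lowest of WT, Des made up 496.2. The log2 fold changes were -1.04 for Ttn, -0.48 for Myh6, 0.07 for Des and 0.35 for Myh7, and none passed an unadjusted p of 0.05. Fibroblast markers (4 of 8 present, without Col3a1, Dcn, Lum and Postn) summed to 96.64 to 177.9 in KO and 74.58 to 154.5 in WT. Both mesoderm markers present (of 4) had positive log2 fold changes, 0.51 for Eomes (limma p 0.0384 unadjusted and 0.527 adjusted) and 1.00 for T (p 0.1), and their sums ran from 93.29 to 131.2 in KO and from 66.38 to 107.9 in WT.

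Neural markers (11 of 12 present) summed to 5018.9 to 5498.2 in KO and 4596.1 to 5314.6 in WT (exact permutation p 0.114), while single members went opposite ways. Stmn2 alone averaged 2880.5 in KO and 2455.1 in WT. Olig2, a factor of neural progenitors, was higher in KO (log2 fold change 0.68, limma p 0.00325 unadjusted and 0.424 adjusted). Nes, an intermediate filament of the same cells, was lower (-0.50, limma p 0.0161 unadjusted and 0.46 adjusted). These were the 2 neural markers with an unadjusted p under 0.05, against 9.09% of all transcripts. Neither overlapped between the groups, as in 5.48% of all transcripts with KO higher and 4.62% with KO lower. Of the 11 neural markers 6 had negative log2 fold changes, and the median was -0.19. The part of these cells in the regulators' values was not tested.

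**Figure D3:**
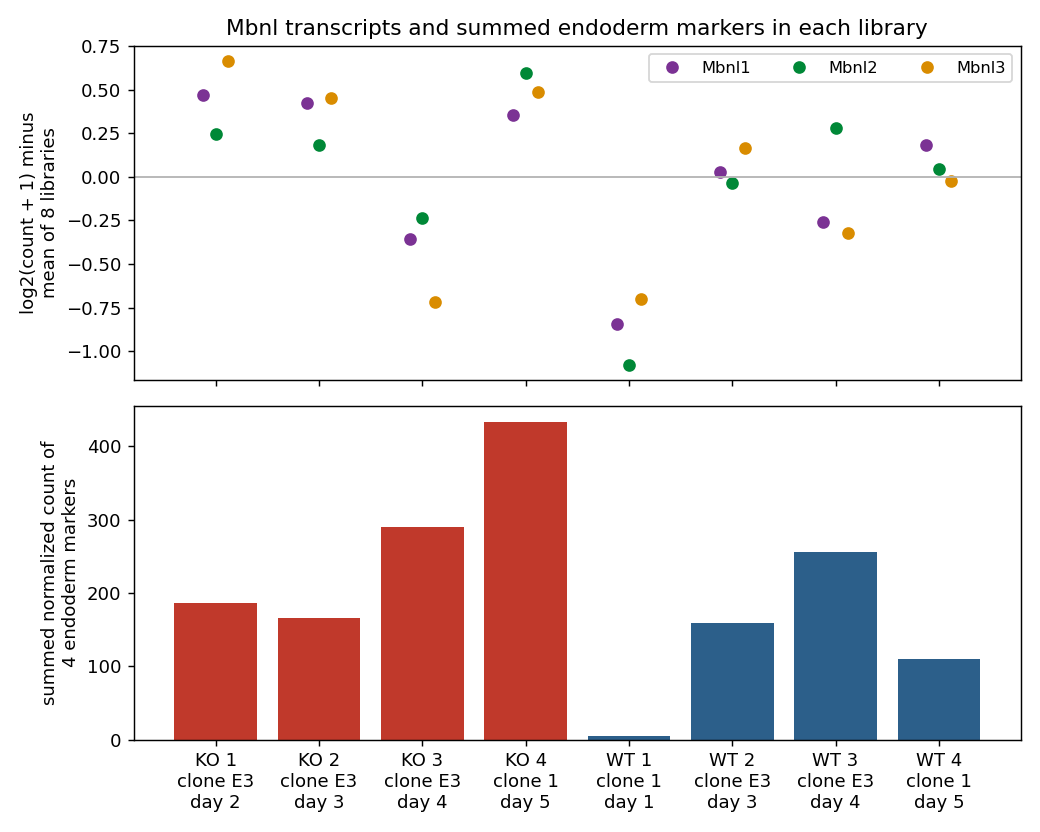
Upper panel: log2(normalized count + 1) of Mbnl1, Mbnl2 and Mbnl3 in each library minus the mean of the 8 libraries. Lower panel: summed normalized counts of the 4 endoderm markers present, from 4.717 in WT replicate 1 to 434 in KO replicate 4. Both panels show deposited values, with the clone correction in place. In these, all 3 Mbnl messages are below their mean in WT replicate 1 and in KO replicate 3.

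Ptbp2, the neural paralog of Ptbp1 (chr3:119718742-119784466, minus strand, mm10), had the largest estimated change of the 10 over all 8 libraries, a rank that rests on KO replicate 3. The KO libraries, in replicate order, gave 350, 337.6, 106.5 and 269.8 normalized counts, and the WT libraries gave 395.7, 481.8, 307.9 and 386.4. KO replicate 3 was far below the rest, and WT replicate 3 lay below KO replicates 1 and 2, so the groups overlapped. The log2 difference was -0.66 (SE 0.407, 95% interval -1.61 to 0.30), with a limma p of 0.15 unadjusted and 0.657 adjusted and an exact permutation p of 0.0857. Without KO replicate 3 it was -0.31 (p 0.14), smaller than the estimates of Mbnl3, Mbnl1, Mbnl2 and Esrp1 (0.72, 0.61, 0.50 and 0.45). On days 3, 4 and 5 the KO minus WT difference was -0.51, -1.52 and -0.52 on the log2 scale. With the day as a replicate block, over the 6 libraries of these days, the unadjusted limma p was 0.0258 and the adjusted p 0.232 (unadjusted p 0.136 over the same libraries without the block), in a fit that put 19.2% of all transcripts under 0.05.

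Ptbp1 itself (chr10:79854427-79864771, plus strand, mm10) gave 7630.5, 9153.4, 9656 and 8452.7 normalized counts in the KO libraries, in replicate order, against 8992.4, 9240.5, 7775.2 and 8564.3 in the WT libraries. The groups were interleaved, and the means of 8723.1 ± 879.8 and 8643.1 ± 642.5 (SD, n = 4 each) differed by far less than either SD. The 95% interval of the log2 fold change of 0.01 ran from -0.29 to 0.31, which leaves room for a small difference in either direction. Rbfox2 (chr15:77078990-77307004, minus strand, mm10) ranged from 2224.9 to 2770.1 normalized counts in KO and from 2116.4 to 2764.2 in WT, with a log2 fold change of 0.04 (SE 0.136, limma p 0.764 unadjusted and 0.929 adjusted). Srrm4 (chr5:116439275-116591817, minus strand, mm10) ranged from 25.63 to 38.69 in KO and from 27.64 to 33.75 in WT (log2 fold change 0.11, SE 0.164, limma p 0.539 unadjusted and 0.846 adjusted). Counting error alone gave Srrm4 a coefficient of variation of up to 23.6%, so a difference of the size seen could not be resolved at this depth.

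**Figure D4:**
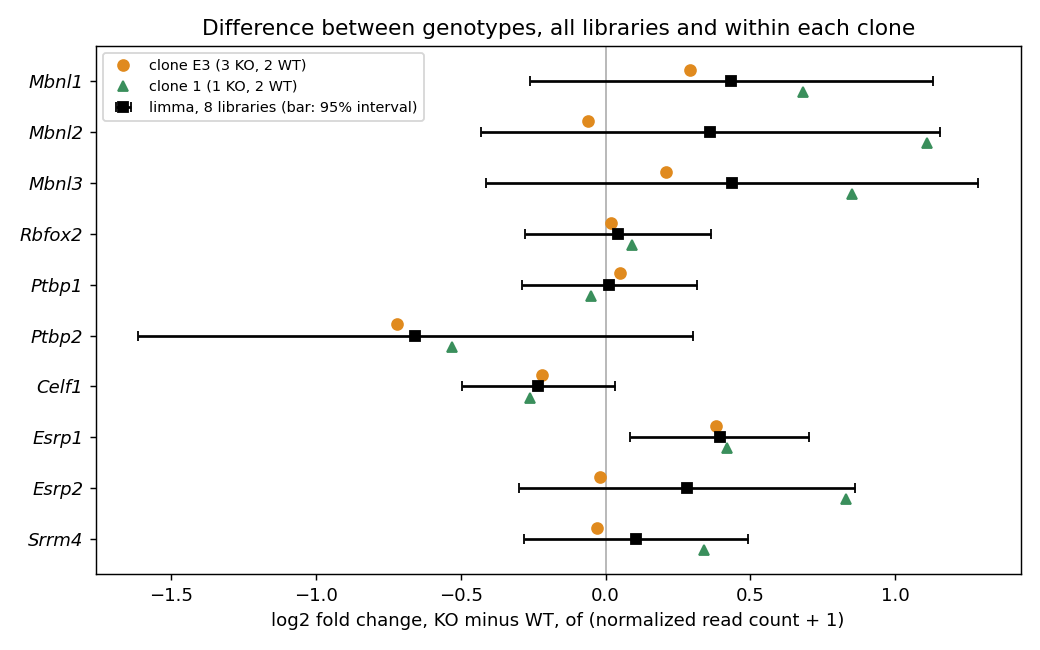
Log2 fold change, KO minus WT, of normalized count + 1 (horizontal axis) for each regulator. Squares with bars are limma estimates over 8 libraries with 95% intervals, circles the difference within clone E3 (3 KO, 2 WT) and triangles within clone 1 (1 KO, 2 WT). All estimates use the deposited values. The interval leaves 0 outside for Esrp1 only (0.08 to 0.70), and the clones lie far apart for Mbnl2 (-0.06 and 1.11) and Esrp2 (-0.02 and 0.83).

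Other regulators of tissue-type splicing were examined as a list, of which 29 of 35 genes were present. Rbfox1, Celf3, Celf6, Srrm3, Khdrbs2 and Rbm24 were not analysed here. In the same fit 3 of the 29 passed an unadjusted p of 0.05, 1 higher and 2 lower in KO, near the background of 9.09%, and the median log2 fold change was -0.00. Celf4, a neural CELF protein, rose from 189 ± 47.62 to 287.2 ± 54.61 normalized counts (SD, n = 4; log2 fold change 0.61, limma p 0.0336 unadjusted and 0.516 adjusted). Elavl4, a neuronal RNA-binding protein, fell from 37.91 ± 6.756 to 21.78 ± 10.53 (log2 fold change -0.87, limma p 0.0439 unadjusted and 0.541 adjusted). Elavl2 of the same family fell from 330.3 ± 73.23 to 227.6 ± 46.06 (-0.54, limma p 0.0491 unadjusted and 0.546 adjusted). In each of these 3 genes the groups overlapped, and none kept an unadjusted p under 0.05 in more than 3 of the 8 fits that left out 1 library. Qk, the quaking RNA-binding protein, averaged 2703.9 in KO and 3189.4 in WT normalized counts, Rbfox3, a marker of mature neurons, 25.02 and 35.36, and Khdrbs1, the highest of the list, 3687.6 and 3609.5, and none of these passed.

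No gene of the SR or hnRNP families, whose proteins act on most exons, passed an unadjusted p of 0.05 in limma or with voom on recovered reads. All 15 SR and SR-related genes were present, and their median log2 fold change was -0.04. Srrm2, which encodes a large scaffold protein of nuclear speckles, had 8915.6 to 10852.6 normalized counts in KO and 11118.1 to 13944.2 in WT, the only 1 of the 15 whose groups did not overlap, against 4.62% of all transcripts with KO lower. Its log2 fold change was -0.30 (SE 0.130, limma p 0.0553 unadjusted and 0.556 adjusted, exact permutation p 0.0286). Its unadjusted p fell under 0.05 without a clone term, with a mean of at least 50, with a trended robust prior, in the linear model and without KO replicate 3 or WT replicate 4. The log2 fold changes were -0.40 for Srsf12, 0.13 for Srsf2, -0.18 for Srsf10 and -0.15 for Tra2a, with unadjusted p of 0.0792 or more. All 23 hnRNP genes were present, and their median was -0.09, with 15 estimates below 0. With the day as a replicate block 3 of them (Hnrnpa0, Hnrnph1 and Hnrnpr) and 1 SR gene (Srsf12) passed, against 19.2% of all transcripts, and with voom and the block 7 hnRNP and 2 SR genes, against 24.5%. In the limma fit of genotype and clone, the smallest unadjusted p of the hnRNP genes was 0.145 for Hnrnpa0 (log2 fold change 0.25). The log2 fold changes in that fit were -0.24 for Hnrnpa1, -0.29 for Hnrnpr, -0.34 for Hnrnph1, -0.22 for Hnrnpa2b1 and 0.03 for Hnrnpf, the most abundant. Both families had their lowest summed level in KO replicate 3, at 52217 and 101378 normalized counts, against ranges of 61533 to 69866 and 114393 to 145147 in WT.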

How the data were processed

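mRNA of 8 mES cell libraries (KO 4, WT 4) was prepared with an unstranded Illumina kit. Per the labels and the study's methods, the authors aligned reads to mm10 (CASAVA 1.8, Bowtie2 2.2.1), counted reads per transcript, normalized the counts with DESeq2, subtracted a clone (batch) effect in Partek 6.6, set values under 1 to 1 and dropped transcripts whose higher group mean was under 10. What the authors deposited is thus a normalized signal, called normalized read counts here. A linear model of genotype and clone had a clone effect of 0 in each of the 13350 transcripts that never reached the floor. From this the batch was taken here to be the clone. Undoing the correction as whole reads times a library factor plus a clone shift gave unique reads for 13450 transcripts (99.2%), and 99.955% of deposited values were returned. These reads cover the deposited transcripts only.

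Transcripts were tested with limma 3.58.1 (R 4.3.3) on log2(value + 1) in a model of genotype plus clone, with Benjamini-Hochberg adjustment over all 13558. Fold changes on this scale understate changes of low transcripts. The criterion was an unadjusted p under 0.05 with a fold change of at least 1.5. Permutation tests were two-sided and are called exact because all 70 assignments were counted. They used the deposited, clone-corrected values and took no account of clone or day. Clones were unevenly divided between the genotypes, so the assignments are not strictly interchangeable and these p-values are descriptive. Positions, exonic lengths and sequences came from GENCODE M21, with Python 3.11.15 and Biopython 1.88. Besides the 10 genes, the text names from each list of splicing factors the 5 transcripts with the smallest p and the 1 with the highest mean, and the 3 transcripts most like each Mbnl. The genes and lists were chosen with earlier results of these data known. The label "day" pairs 3 libraries of both genotypes, and the labels do not say what the day counts. Deviations from group means correlated at 0.42, 0.54 and -0.23 on days 3, 4 and 5 (0.54, 0.63 and 0.52 with the correction undone). Between KO and WT libraries of different days they correlated at -0.58 to 0.31 (-0.42 to 0.34 with the correction undone).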

Additional observations from a re-analysis of the deposited data

Results flagged for a closer look

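Among 54 groups of 4 libraries examined, for the 10 regulators and the named genes of the other lists, the extreme library stood farther from the rest than Dixon's 95% limit in 3 groups, where chance gives about 2.7. All 3 were in KO replicate 3. Qk was low there, at 1809.2 normalized counts against 2936.4 to 3103.9 in the other KO libraries. Hnrnpa1 was low as well, at 1599.3 against 2167.8 to 2281.2. Rbfox3 was high, at 41.68 against 18.7 to 20.98, a value close to the 40.67 of WT replicate 3 of the same day.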

How the results depend on the processing

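No regulator passed 0.05 after adjustment under any of the 22 alternatives, where the lowest adjusted p among the 10 ranged from 0.108 to 1. The count of regulators with an unadjusted p under 0.05 (1) was 2 with no clone term, the day block, a trended robust prior, voom on recovered reads, clone 1 only and the linear model on untransformed values, 3 with voom and the day block, and 0 in clone E3 only. Leaving out 1 library gave 0 to 2, 0 when KO replicate 2, KO replicate 4 or WT replicate 3 was dropped and 2 when KO replicate 3 was. Of the 67 other splicing factors, 3 passed, against 5 with no clone term, 8 with the day block, 16 with voom and the day block, 0 in clone E3 only and 1 with the linear model. Leaving out 1 library gave 0 (without KO replicate 4 or WT replicate 1) to 3, and 1 when KO replicate 2 or WT replicates 2 or 3 were dropped in turn. Over all transcripts 1232 became 1898, 2601, 3293 and 376 with no clone term, the day block, voom with the block and clone E3 only, and 442 without KO replicate 4. The 576 past the fold change criterion became 315 among means of at least 50, 1015 with the day block, 1086 with voom and the block, 278 in clone E3, 1201 in clone 1, 382 with the linear model and 260 without KO replicate 4.

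The direction of Esrp1 and Celf1 held in all 22 alternatives (log2 fold change 0.35 to 0.45 and -0.30 to -0.18), as did that of Mbnl1, Mbnl3 and Ptbp2. Esrp1 was under 0.05 in 17 of them and not within a single clone (p 0.1 in E3 and 0.148 in clone 1). Directions turned in clone E3 only for Mbnl2 (-0.055), Esrp2 (-0.020) and Srrm4 (-0.027), and in clone 1 only for Ptbp1 (-0.054). Leaving out 1 library at a time gave -0.055 to 0.578 for Mbnl2, -0.020 to 0.400 for Esrp2 and -0.027 to 0.204 for Srrm4, each negative without KO replicate 4, where the clone term leaves clone E3 alone to set the estimate. It gave -0.052 to 0.152 for Rbfox2, negative also when KO replicate 2 was dropped (-0.008), and -0.065 to 0.068 for Ptbp1, negative when KO replicate 2 (-0.011), KO replicate 3 (-0.034) or WT replicate 3 was dropped. Where a clone or a library was left out, fewer samples were tested, and for the other alternatives the cause was not tested. With the day block Ptbp2 was at -0.85 (p 0.0258), and with voom and the block at -0.73 (p 0.00536). The day block, in the 6 libraries of days 3, 4 and 5, changed no other regulator's call. Celf1 was under 0.05 in 5 of the alternatives, at p 0.0275 or more.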

Other observations

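Ratios between paralogs were computed after the values were seen, from normalized counts per kb of exon. The share of the 3 Mbnl messages did not differ detectably between genotypes. Mbnl2 made up 69.5% ± 4.09 in KO and 70.2% ± 5.05 in WT (SD, n = 4; exact permutation p 0.914), Mbnl1 20.7% ± 2.3 and 20.3% ± 3.21 (exact p 0.771), and Mbnl3 9.77% ± 2.12 and 9.55% ± 2.05 (exact p 0.8). The Mbnl3 share was lowest in both day 4 libraries of clone E3, at 7.09% in KO replicate 3 and 6.94% in WT replicate 3. The 3 Mbnl messages together came to 60% ± 13 of the Celf1 level in KO and 39.9% ± 13.6 in WT (exact permutation p 0.0857), with the groups overlapping. Without WT replicate 1 the WT value was 46.3% ± 5.85 (n = 3), and the groups still overlapped. Without KO replicate 3 the KO value was 65.3% ± 8.97 (n = 3), and the remaining KO libraries lay above all WT libraries. Ptbp2 stood at 3.22%, 2.59%, 0.774% and 2.24% of Ptbp1 in KO replicates 1 to 4 and at 3.09%, 3.66%, 2.78% and 3.17% in WT replicates 1 to 4 (exact permutation p 0.114). The means were 2.21% and 3.17%, and without KO replicate 3 the KO mean was 2.68%. Esrp2 came to 14.3% ± 5.32 of Esrp1 in KO and 14.8% ± 2.72 in WT (exact permutation p 0.743), and to 12.3% ± 4.08 in KO without KO replicate 3 (n = 3).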
